A study of Homo sapiens with 16 samples.

Results

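The genes described here encode the protein core of the spliceosome and the RNA-binding proteins that steer it. Members were all probe sets whose single gene symbol in the platform annotation begins with SRSF, HNRNP, SF3A, SF3B, SNRP, PRPF or U2AF. The rule used names and no measured value, and it found 72 of 12626 probe sets, for 53 genes. They comprised 14 tested probe sets for 9 SR protein genes, 22 for 17 hnRNP genes, 9 for 7 SF3A and SF3B genes, 14 for 11 snRNP protein genes, 9 for 7 PRPF genes and 3 for the 2 U2AF genes. In all, 71 of the 72 passed the filter on low values. The exception was 33231_at, one of the pair of PRPF19 probe sets, which read below 0 on all 16 arrays. A further 11 probe sets carried several symbols, at least 1 of them with a member prefix. SRSF2, SRSF9, HNRNPH2 and SNRPN were on the array only in this form and are not described.

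U937 is a human myelomonocytic leukaemia line, and the cells used here carried AML1-ETO, the fusion protein of the t(8;21) leukaemia, under a tetracycline-controlled promoter. Control cells were sampled at 0, 24, 48 and 72 h and cells induced to express AML1-ETO at 12, 24, 48 and 72 h, each group with 2 Affymetrix U95Av2 arrays, 16 in all. Both arms carried the construct and differed in induction as far as the labels say. An effect of tetracycline itself cannot be told apart from that of AML1-ETO in this design. The labels do not say whether the line was a single clone or whether replicates came from separate cultures. The p-values therefore measure the spread between these arrays, which may be technical.

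Splicing removes introns from pre-mRNA. U1 snRNP binds the 5′ splice site, the U2AF heterodimer reads the 3′ splice site, and U2 snRNP, with its SF3A and SF3B subcomplexes, engages the branch point before the U4/U6.U5 tri-snRNP joins to form the catalytic centre. A ring of Sm proteins (SNRPB, SNRPD1, SNRPD2, SNRPD3, SNRPE, SNRPF and SNRPG) encircles each of the U1, U2, U4 and U5 snRNAs. SR proteins, with domains rich in arginine and serine, mostly promote the use of nearby sites, and hnRNPs often oppose them. In myeloid malignancies SF3B1 and U2AF1 are recurrently mutated.

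RUNX1T1, whose ETO portion forms part of the fusion, served as the check of induction. Its tested probe set read at most 91.4 in the 8 control arrays, 8649.6 and 3974 in induced cells at 48 h and 10603 and 8355 at 72 h. At 24 h the induced arrays read 1592 and -47.5, so 1 of them showed no signal by this probe set, and at 12 h neither array did. Array medians ran from 220 to 338 intensity units, and 22.6% to 33.9% of an array's values were below 0. Over all 7824 tested probe sets the median log2 difference between induced and control cells was 0.10 for the mean of the 3 later times and 0.18 at 72 h, and small differences are to be read against that shift. Of the myeloid marker list, 7 of 13 tested probe sets fell and 2 rose in the mean effect. That is 69.2% passing the test in limma, beside 31.9% of all probe sets (13.4% lower and 18.5% higher). Both rises were of CD4, whose remaining probe set, 856_at, gave log2 -0.26 and did not pass. Both CTSG probe sets were among the falls. The summed intensity of the myeloid list was 29592 to 33825 in the 4 induced arrays of 48 and 72 h against 52754 to 60861 in the 4 controls. Of 9 tested probe sets for markers of lymphoid, erythroid, epithelial and stromal cells, 0 passed the test in limma in the mean effect (2 at an unadjusted p under 0.05) and 1 did at 48 h, COL1A1 by 35473_at, which was lower (log2 -2.13, adjusted p = 0.0320). The summed intensity of all 26 on the array ranged from 8376 to 13027 over the 16 arrays. Of these 26, 6 lay under the floor on every array, those of CD3G, CD79B, KRT18 and 1 each of MS4A1, CDH1 and COL1A1, and 4 lay above it on every array (CD3E, ALAS2, KRT8 and 1 of COL1A1). The part of these marker differences in the results below was not tested.

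Among the snRNP protein genes, 6 of 11 had a probe set that fell in the mean effect of induction (SNRPA, SNRPF, SNRPB, SNRPD2, SNRPC and SNRPE), while 3 genes of the SF3B subcomplex (SF3B1, SF3B3 and SF3B4) rose. The SR protein genes SRSF4, SRSF5 and SRSF11 also rose. They gave 3 of the 14 probe sets of that family (21.4%), near the 18.5% of all probe sets called higher. A probe set is called at an adjusted p under 0.05 in limma's moderated test, with Benjamini-Hochberg adjustment over all 7824 tested probe sets. For the mean of the induced minus control differences at 24, 48 and 72 h, 21 of 71 member probe sets were called, 9 higher and 12 lower, from 9 and 11 genes. That is 29.6% of the members, beside 31.9% of all probe sets tested (18.5% higher and 13.4% lower), so the members were called about as often as probe sets in general. Their median difference was log2 -0.12 against 0.10 over all. With control 0 h in place of the controls of the same time, 8 members were called, 3 higher and 5 lower. That is 11.3% of the members beside 17.5% of all probe sets tested. Of the 8, 6 were among the 21: SF3B3, SF3B4, SF3A3, SNRPE, SNRPA and SNRPF. The other two were HNRNPA1, lower, and HNRNPM, higher. RNA from fewer cells of a type and less RNA per cell cannot be told apart in such bulk samples.

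Members were called at 48 and 72 h and not at 24 h. At 24 h, 0 of 71 members and 0% of all probe sets passed the test, with 2 members at an unadjusted p under 0.05, and no setting tried gave a member call at that time. Leaving out the induced array without RUNX1T1 signal also gave 0. At 48 h, 8 members were called (3 higher, 5 lower), or 11.3% beside 19.2% of all (10.5% higher and 8.68% lower). At 72 h, 20 were called (8 higher, 12 lower), or 28.2% beside 30% of all (16.1% higher and 13.9% lower). Of the members called at 48 h, 6 were also called at 72 h in the same direction, which is 75% of the calls at 48 h and 30% of those at 72 h. The 48 h count fell when any 1 of its 4 arrays was left out, and so did the count over all probe sets at that time. Such a fit leaves 1 array in a group, and the drop was not particular to the members. The 72 h count became 12 without control replicate 1, 13 without control replicate 2 and 11 without induced replicate 2. As a look at the values without a model, the 4 induced arrays of 48 and 72 h lay wholly above the 4 controls for 10 members and wholly below for 15, together 35.2% of the members beside 36.6% of all probe sets (21.8% above and 14.8% below).

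**Figure D1:**
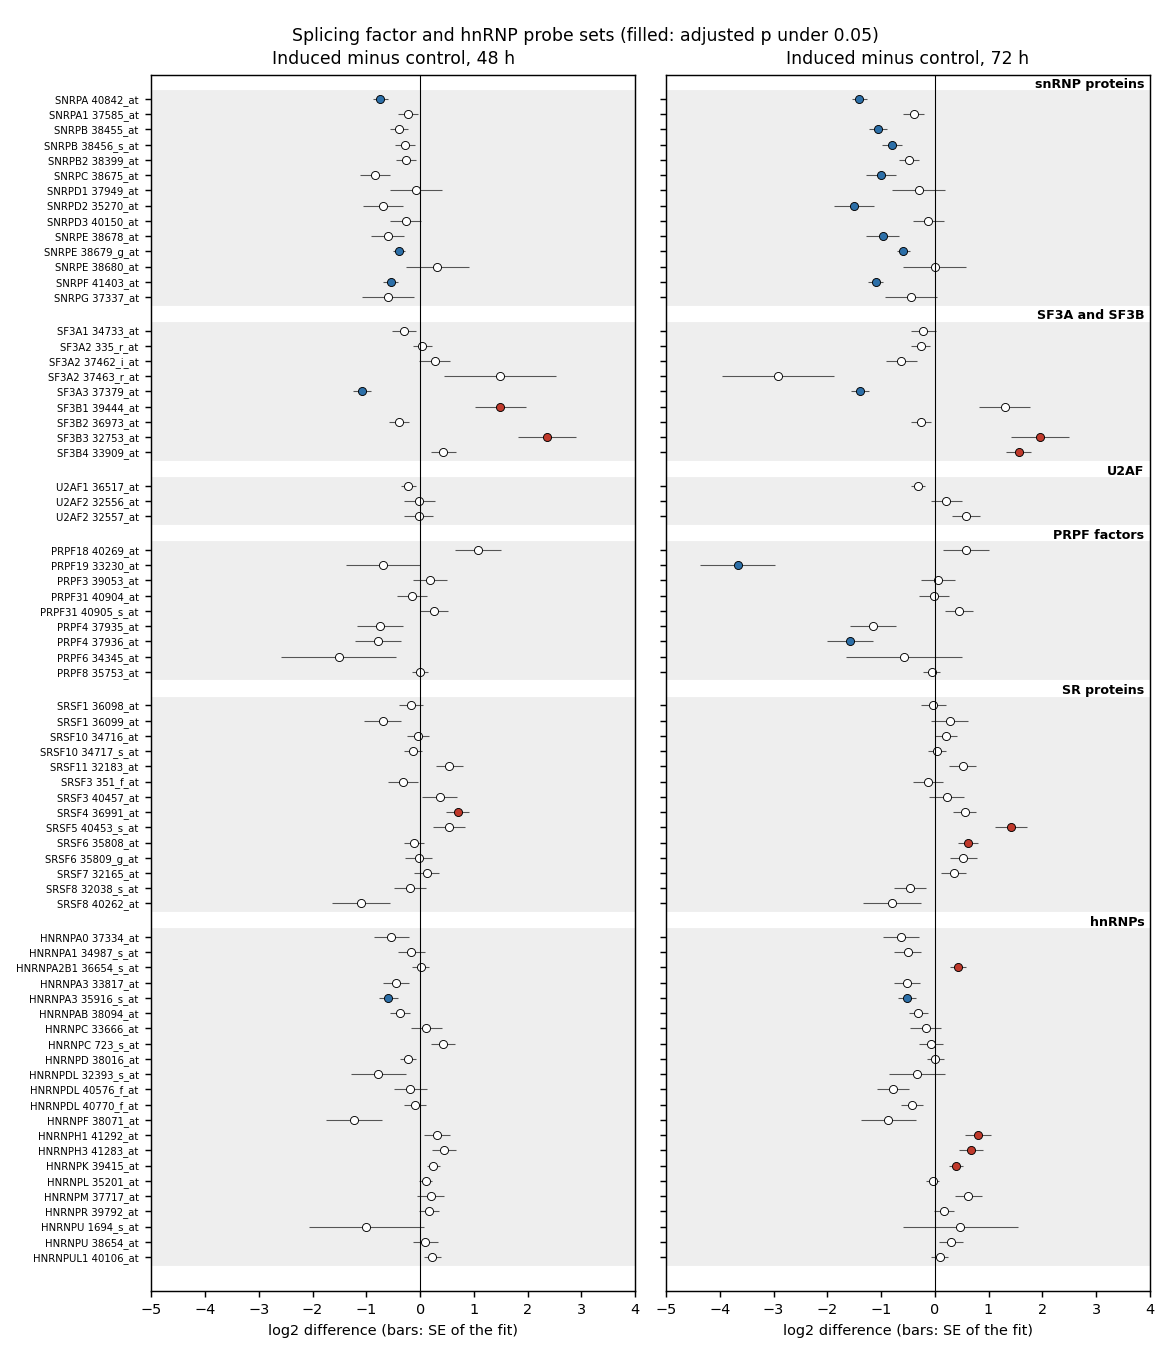
Log2 difference between induced and control cells (x axis) for each of the 71 tested member probe sets (y axis, grouped by family) at 48 h and 72 h; bars are the SE of the fit, and filled points passed an adjusted p of 0.05, red for higher and blue for lower. At 72 h all 14 snRNP protein values lie at or below 0 and 8 are filled (13.9% of all probe sets were called lower). Of 14 SR protein points 2 are filled, both above 0 (14.3%, beside 16.1% of all probe sets called higher).

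Among the snRNP protein genes, 7 of 14 tested probe sets fell in the mean effect and 0 rose, beside 13.4% of all probe sets lower, and 8 fell and 0 rose at 72 h, beside 13.9% of all lower. At 72 h all 14 values lay below 0, with a median of log2 -0.69 against 0.18 over all probe sets tested and -0.13 over all members. The fall was seen under each scaling, with 9 probe sets lower and 0 higher at 72 h after quantile normalization and 10 and 0 after median centring. Over all 7824 probe sets, 1265 were called lower and 1192 higher at 72 h after quantile normalization, and 1315 and 999 after median centring. SNRPA, the U1 snRNP protein that binds a stem loop of U1 snRNA, was the clearest. SNRPA read 16283 and 14902 in controls at 0 h, 17525 and 15740.5 at 24 h, 17442 and 15464 at 48 h and 20659.5 and 18071 at 72 h. In induced cells it read 19088 and 19733 at 12 h, 14026 and 12603 at 24 h, 9338 and 10384 at 48 h and 6719.6 and 7944 at 72 h. The lowest of the 8 control arrays read 14902.5, and the induced arrays of 48 and 72 h were the 4 lowest of the 16. SNRPA fell 1.67-fold at 48 h (log2 -0.74, SE 0.14, adjusted p = 0.00220) and 2.64-fold at 72 h (log2 -1.40, SE 0.14, adjusted p = 6.56e-06).

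SNRPF, a subunit of the Sm ring, read 13883 and 14657 in controls and 9482 and 10021 in induced cells at 48 h. At 72 h the values were 10589 and 11531 against 5929 and 4495, and the groups did not overlap at either time. SNRPF fell 2.14-fold at 72 h (log2 -1.10, SE 0.14, adjusted p = 7.02e-05) and 1.46-fold at 48 h (adjusted p = 0.0162). At 24 h, by contrast, controls read 14074 and 13329 and induced cells 14760.3 and 14544. SNRPB, which encodes Sm protein B, was measured by a pair of probe sets. The first, 38455_at, read 12203 and 14519 in controls and 7085 and 5720.3 in induced cells at 72 h, a fall of 2.09-fold (log2 -1.06, SE 0.17, adjusted p = 3.19e-04). The other, 38456_s_at, read 12325 and 14306 against 8937 and 6601 and fell 1.73-fold (log2 -0.79, SE 0.19, adjusted p = 0.00542). In both, each induced array lay under each control array at 48 h and at 72 h.

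SNRPD2, another Sm ring subunit, had the largest fitted fall of this family at 72 h (2.84-fold, log2 -1.50, SE 0.38, adjusted p = 0.00806). It read 14714 and 11343 in controls at 72 h and 5184 and 3997 in induced cells, but its replicates were far apart at 12 h (16069 and 6268) and in the 24 h controls (11164 and 5815). SNRPC, the zinc finger protein of U1 snRNP that helps it hold the 5′ splice site, read 7623 and 7390.2 in controls and 4725 and 3003 in induced cells at 72 h (1.99-fold lower, log2 -0.99, SE 0.28, adjusted p = 0.0154). The brightest SNRPE probe set, 38679_g_at, read 17229 and 17314 against 11881 and 11155, a smaller fall of 1.50-fold (log2 -0.59, SE 0.12, adjusted p = 0.00197). A dimmer SNRPE probe set, 38678_at, read 713 and 609 against 299.7 and 378 and was called too (log2 -0.97, adjusted p = 0.0288). The third, 38680_at, read 411 and 531 against 414 and 527, with a difference near 0 (SE 0.59), so the probe sets of this gene did not give the same value, and the SE of the dimmest is wide.

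The 72 h calls of SNRPA, SNRPF, SNRPE (38679_g_at) and SNRPB (38455_at) held with any 1 of the 4 arrays of that time left out. That of SNRPB (38456_s_at) ended when induced 72 h replicate 2 was left out (adjusted p up to 0.0724), that of SNRPD2 when control 72 h replicate 1 or induced 72 h replicate 2 was left out (adjusted p up to 0.0761), that of SNRPC when any of the 4 arrays but induced 72 h replicate 1 was left out (adjusted p up to 0.169) and that of SNRPE (38678_at) when any of the 4 arrays but induced 72 h replicate 2 was left out (adjusted p up to 0.144). At 48 h the call of SNRPA held in all 4 cases, while that of SNRPF ended when any of the 4 arrays was left out (adjusted p up to 0.104) and that of SNRPE (38679_g_at) when any of the 4 arrays was left out (adjusted p up to 0.250). In the mean effect, SNRPD2 (log2 -0.64, SE 0.22, adjusted p = 0.0371) was no longer called when any of the 12 arrays but control 24 h replicate 2, induced 24 h replicate 1 or control 72 h replicate 2 was left out (adjusted p up to 0.117), and SNRPB (38456_s_at) when control 48 h replicate 2, control 72 h replicate 2 or induced 72 h replicate 2 was left out (adjusted p up to 0.0607). With control 0 h as the comparator, SNRPB (38455_at and 38456_s_at), SNRPC and SNRPD2 were not called. Their differences were then log2 -0.16 and -0.13 for SNRPB, -0.29 for SNRPC and -0.41 for SNRPD2.

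The U2 snRNP proteins SNRPA1 and SNRPB2 were not called at 72 h (log2 -0.39, SE 0.19, and -0.48, SE 0.18). SNRPB2 read 2968 and 3150 in controls and 2265 and 2110.2 in induced cells at that time. SNRPD3 and SNRPG had values of log2 -0.12 (SE 0.29) and -0.44 (SE 0.48), and replicates of SNRPG were up to 4-fold apart (10808 and 2583 at 12 h). SNRPD1 was dim, at or under 412 on all arrays and under the floor of 136 on 4 of them, so little can be read from it.

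**Figure D2:**
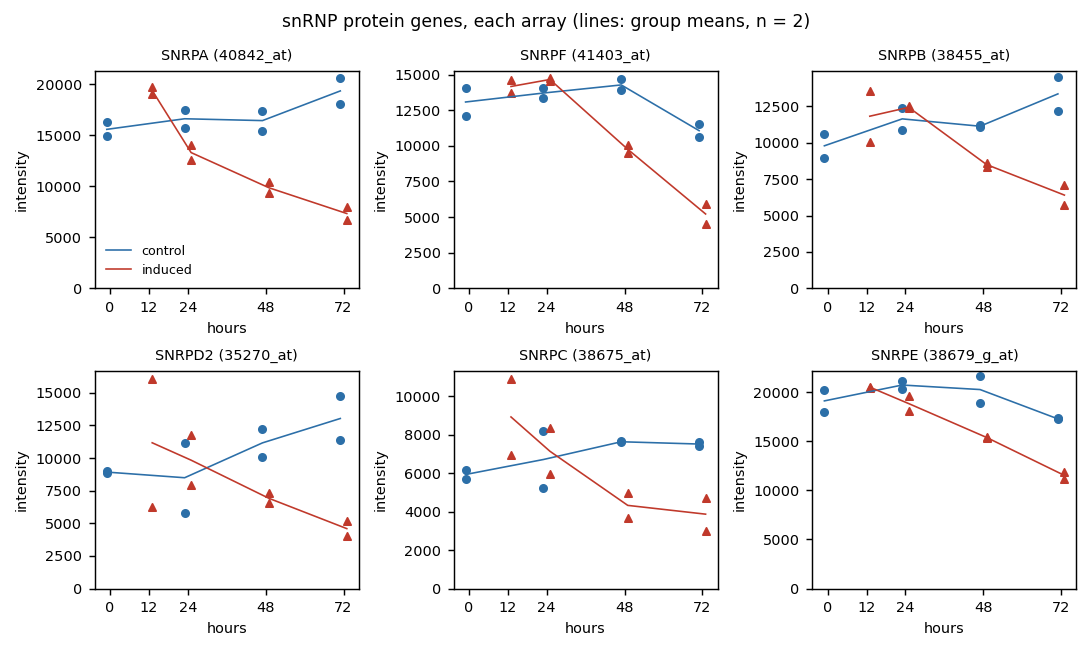
Intensity (y axis, from 0) against hours (x axis) for 6 snRNP protein probe sets that were called lower at 72 h; each point is 1 array (circles, control; triangles, induced) and lines join group means of 2 arrays. In each panel the induced arrays of 72 h lie under both controls of that time, and for SNRPA they read 6719.6 and 7944 against 20659.5 and 18071.

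The SF3A and SF3B genes, whose products belong to the same U2 snRNP, did not move together. Of 9 tested probe sets, 3 rose and 1 fell in the mean effect. That is 44.4% called beside 31.9% of all probe sets (18.5% higher and 13.4% lower). SF3A3, a subunit of SF3A, fell, and 3 of the 4 SF3B genes rose. SF3A3 read 4819 and 4369.5 in controls at 0 h, 4854 and 4953 at 24 h, 5279 and 5014 at 48 h and 3718 and 4649.7 at 72 h. Induced cells read 8389 and 6643 at 12 h, 4984 and 4955 at 24 h, 2254 and 2604 at 48 h and 1663 and 1513 at 72 h. The 12 h arrays were the highest of the 16 and the 4 induced arrays of 48 and 72 h the lowest, while at 24 h all 4 arrays lay between 4854 and 4984. SF3A3 fell 2.12-fold at 48 h (log2 -1.09, SE 0.16, adjusted p = 4.85e-04) and 2.62-fold at 72 h (log2 -1.39, SE 0.16, adjusted p = 3.26e-05), and these calls held under each alternative tried, with control 0 h as comparator in the mean effect included.

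SF3B4, an RNA-binding subunit that contacts pre-mRNA near the branch point, read 2428 and 2800.1 in controls and 8211 and 7223 in induced cells at 72 h. SF3B4 rose 2.95-fold (log2 1.56, SE 0.23, adjusted p = 1.79e-04), and both induced arrays were the highest of all 16. At 48 h it read 3555 and 4464 against 5815 and 4969, which did not pass the test (log2 0.43, adjusted p = 0.226). Its control values were higher at 24 h (4718 and 4321) than at 0 h (2989 and 2455) or 72 h. SF3B3, the large subunit with beta-propeller domains, was dim: 71 and 16 in controls and 722 and 668 in induced cells at 48 h. At 72 h it read 31 and 307 against 720.4 and 872. Both 48 h controls and 1 of the 72 h controls lay under the floor of 136, so its rises were at least 5.12-fold at 48 h (log2 2.36, SE 0.54, adjusted p = 0.00796) and at least 3.88-fold at 72 h (log2 1.96, SE 0.54, adjusted p = 0.0142). With the floor at the median of all values the fitted value at 48 h was log2 1.25 and with the floor at 50 it was 3.54.

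SF3B1, the subunit that clasps the branch point and is mutated in myelodysplasia, read 433 and 218 in controls and 955 and 778 in induced cells at 48 h. At 72 h it read 290.4 and 421 against 1238 and 599, again without overlap but with replicates about 2-fold apart. SF3B1 was called at 48 h (2.81-fold, log2 1.49, SE 0.48, adjusted p = 0.0432) and in the mean effect (log2 0.94, SE 0.27, adjusted p = 0.0178), and missed the threshold at 72 h (adjusted p = 0.0546). The 48 h call ended when any of the 4 arrays but control 48 h replicate 1 was left out (adjusted p up to 0.305), and the call on the mean when control 24 h replicate 1, induced 24 h replicate 2, control 48 h replicate 2, control 72 h replicate 1 or induced 72 h replicate 1 was left out (adjusted p up to 0.0585). The 72 h call of SF3B3 ended when control 72 h replicate 1 or induced 72 h replicate 2 was left out (adjusted p up to 0.152). SF3B2, by contrast, had a mean difference of log2 -0.23 (SE 0.11, adjusted p = 0.116). SF3A1 and SF3A2 were not called either. For SF3A2, 335_r_at and 37462_i_at gave mean values of log2 -0.12 and -0.18, while 37463_r_at lay under the floor on 9 arrays.

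**Figure D3:**
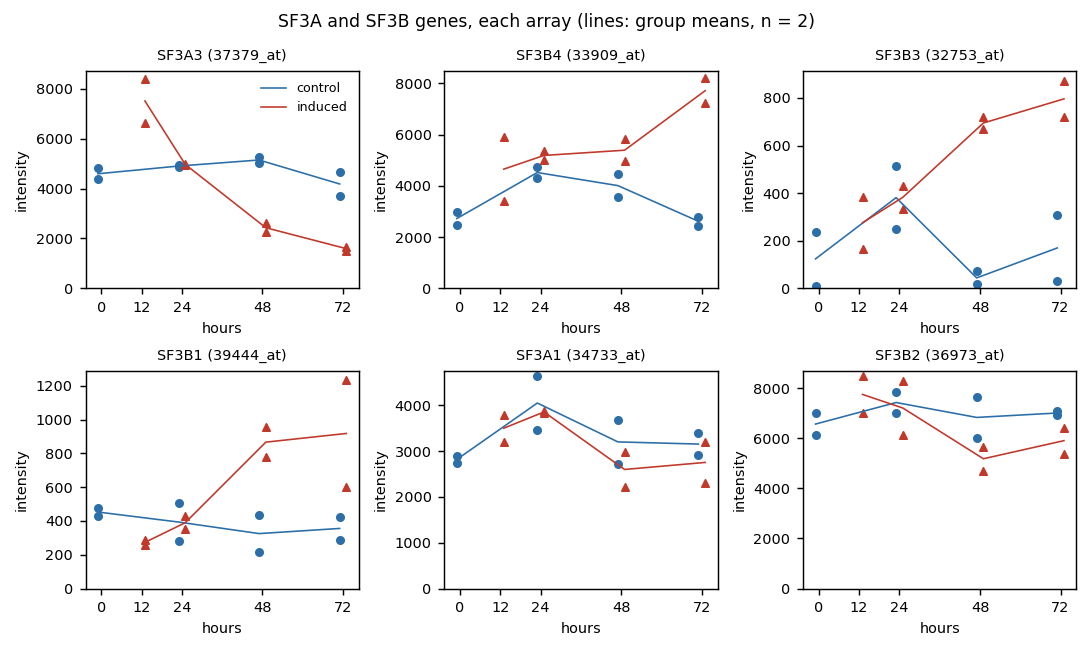
Intensity (y axis, from 0) against hours (x axis) for 6 SF3A and SF3B probe sets; each point is 1 array (circles, control; triangles, induced) and lines join group means of 2 arrays. SF3A3 falls from 12 h onward in induced cells to 1663 and 1513 at 72 h, SF3B4, SF3B3 and SF3B1 lie above the controls at 48 and 72 h, and SF3A1 and SF3B2 were not called.

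Neither subunit of the U2AF heterodimer was called. U2AF1, which reads the AG of the 3′ splice site, had a mean difference of log2 -0.22 (SE 0.08, adjusted p = 0.0504), just outside the threshold. It was called lower under 9 of the alternatives, among them both other floors, the stricter filter and median centring. U2AF2, which binds the polypyrimidine tract, gave log2 0.03 and 0.17 from its probe sets (SE 0.16 and 0.15).

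Among the PRPF genes, 2 of 9 tested probe sets fell in the mean effect and 0 rose, or 22.2% called beside 31.9% of all probe sets (13.4% lower). PRPF19, a ubiquitin ligase at the heart of the complex that activates the spliceosome, read 1652 and 3378 in controls and 255 and 129.9 in induced cells at 72 h. Since 1 induced array lay under the floor, the fall was at least 12.7-fold (log2 -3.67, SE 0.69, adjusted p = 0.00125). The probe set was erratic elsewhere, with 4285 and 1606 in the 0 h controls, 1767 and 5739 in induced cells at 24 h and 801 and 3115 at 48 h, and only the 72 h arrays stood apart. The call on the mean (log2 -1.54, SE 0.40, adjusted p = 0.00934) was not made with control 0 h as comparator. The PRPF19 difference was then log2 -1.42, with a wider SE of 0.57 (adjusted p = 0.107). PRPF4, a protein of the U4/U6 snRNP, read 1143 and 1674 in controls and 526 and 405 in induced cells by 37936_at at 72 h. PRPF4 fell (log2 -1.58, SE 0.43, adjusted p = 0.0127), and the call ended when control 72 h replicate 2 or induced 72 h replicate 2 was left out (adjusted p up to 0.0984). The other PRPF4 probe set, 37935_at, gave 689.7 and 637 against 459 and 194 (log2 -1.15, adjusted p = 0.0567). On the mean effect PRPF4 (log2 -0.75, adjusted p = 0.0343) was lost when any of the 12 arrays but induced 24 h replicate 2, control 72 h replicate 1 or induced 72 h replicate 1 was left out. It was also lost with control 0 h as comparator (log2 -0.24).

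PRPF8, the scaffold of the catalytic centre, was bright and level. It read between 10242 and 14096 over the 16 arrays, with a mean difference of log2 -0.05 (SE 0.09, adjusted p = 0.731). PRPF3 and PRPF31, proteins of the U4/U6 snRNP, had mean differences of log2 0.01 and of -0.12 and 0.26. PRPF18, a factor of the second step of splicing, read 239 and 240.1 in controls and 504 and 501 in induced cells at 48 h, and 271 and 292 against 422 and 423 at 72 h. The 4 induced arrays lay above the 4 controls, but the difference did not pass the test at either time (adjusted p = 0.105 and 0.335). PRPF6 lay under the floor on 6 arrays.

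Of 14 SR protein probe sets, 3 rose in the mean effect and 0 fell, or 21.4% called beside 31.9% of all probe sets (18.5% higher). The median of the family was log2 0.07, against 0.10 over all probe sets tested, and it became -0.07 after median centring, with 2 rises and 1 fall. Over all 7824 probe sets, median centring gave a median of log2 -0.03, with 1127 rises and 1388 falls. SRSF5, known to respond to growth signals, read 719 and 637 in controls and 1793 and 1837 in induced cells at 72 h. SRSF5 rose 2.68-fold (log2 1.42, SE 0.30, adjusted p = 0.00264), and the call held with any 1 of the 4 arrays left out. At 48 h the induced replicates were apart (1039 and 1792 against 883 and 993 in controls), and the difference was not called (adjusted p = 0.247). SRSF4 read 4742 and 5628 in controls and 7714 and 9139 in induced cells at 48 h, and 5617 and 6016 against 9127 and 8002 at 72 h. It rose 1.41-fold in the mean (log2 0.50, SE 0.12, adjusted p = 0.00662). SRSF11, an SR-related protein, read 2768 and 2994 against 4256 and 3990 at 72 h and rose 1.36-fold in the mean (log2 0.44, SE 0.15, adjusted p = 0.0349). With control 0 h as comparator the differences were log2 0.52 for SRSF5, 0.23 for SRSF4 and 0.07 for SRSF11, none called.

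The call of SRSF11 on the mean ended when any of the 12 arrays but control 24 h replicate 2, control 48 h replicate 2 or induced 48 h replicate 1 was left out (adjusted p up to 0.102), after median centring and with control 0 h as comparator, which also ended those of SRSF4 and SRSF5. At 48 h SRSF4 was called (log2 0.70, SE 0.21, adjusted p = 0.0348), and this ended when any of the 4 arrays was left out (adjusted p up to 0.212). SRSF6 was called at 72 h by 35808_at alone (3915 and 3755 in controls and 5886 and 5865 in induced cells, log2 0.62, SE 0.19, adjusted p = 0.0256). That call ended when any of the 4 arrays was left out (adjusted p up to 0.101), while 35809_g_at, for the same gene, gave log2 0.53 (adjusted p = 0.137). SRSF1, the prototype of the family, had mean differences of log2 -0.09 and -0.17 (SE 0.13 and 0.20). SRSF3, SRSF7, SRSF8 and SRSF10 were not called at any time.

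Among 22 hnRNP probe sets, 3 rose and 2 fell in the mean effect, or 22.7% called beside 31.9% of all probe sets, and the median was log2 -0.02. The calls on the mean moved with the scaling, with 3 rises and 3 falls under quantile normalization and 1 rise and 6 falls under median centring. Over all 7824 probe sets the rises and falls were 1287 and 1259 under quantile normalization and 1127 and 1388 under median centring. HNRNPH1, which binds runs of G, read 3127 and 4358 in controls and 6619.7 and 6087 in induced cells at 24 h, and 2880.2 and 4763 against 7110.5 and 5895 at 72 h. It rose 1.55-fold in the mean (log2 0.64, SE 0.14, adjusted p = 0.00337). Its 0 h controls, at 7127 and 5225, included 1 within the range of the induced values and 1 under it, and with them as comparator the difference was log2 0.12 (adjusted p = 0.740). Its relative HNRNPH3 read 2859 and 3015 against 4690.3 and 4693 at 72 h and rose 1.29-fold in the mean (log2 0.36, SE 0.13, adjusted p = 0.0440). HNRNPK, which binds C-rich tracts, read 15904 and 13168 against 18839 and 19362 at 72 h, a bright signal with a small mean rise of 1.19-fold (log2 0.25, SE 0.07, adjusted p = 0.0196). Under median centring the calls of HNRNPK and HNRNPH3 on the mean ended.

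HNRNPA3, a relative of HNRNPA2B1, fell by 35916_s_at (1.33-fold in the mean, log2 -0.41, SE 0.10, adjusted p = 0.00585). It read 7890 and 7981 in controls and 6319 and 4398 in induced cells at 48 h, and 6436 and 7148 against 5153 and 4352 at 72 h, and 33817_at gave a mean of log2 -0.34 (adjusted p = 0.0810). With control 0 h as comparator the HNRNPA3 difference was log2 -0.01 (adjusted p = 0.990). HNRNPA0 read 1567 and 1783 in controls and 1247 and 941 in induced cells at 72 h and fell 1.47-fold in the mean (log2 -0.56, SE 0.19, adjusted p = 0.0381). HNRNPA2B1 was called at 72 h only (1.35-fold higher, log2 0.44, SE 0.15, adjusted p = 0.0463), where its controls (10338 and 12899) were the lowest of its 16 values but for 1 induced array at 12 h (12098). That call ended when any of the 4 arrays but control 72 h replicate 2 was left out (adjusted p up to 0.308), and in all it was lost under 9 of 13 alternatives, both other scalings among them.

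Leaving out single arrays ended several hnRNP calls on the mean. That of HNRNPH3 ended when any of the 12 arrays but control 24 h replicate 2 was left out (adjusted p up to 0.125), that of HNRNPA0 when any of the 12 arrays but control 24 h replicate 1, induced 48 h replicate 1 or induced 72 h replicate 1 was left out (adjusted p up to 0.111) and that of HNRNPK when induced 24 h replicate 2, control 48 h replicate 1 or induced 48 h replicate 2 was left out (adjusted p up to 0.0587). At 72 h, the call of HNRNPH1 (1.75-fold) ended when control 72 h replicate 1 or induced 72 h replicate 1 was left out (adjusted p up to 0.261), that of HNRNPH3 when any of the 4 arrays was left out (adjusted p up to 0.140), that of HNRNPK when any of the 4 arrays but control 72 h replicate 1 was left out (adjusted p up to 0.190) and that of HNRNPA3 when any of the 4 arrays but induced 72 h replicate 1 was left out (adjusted p up to 0.197). The 48 h call of HNRNPA3 ended when any of the 4 arrays but induced 48 h replicate 1 was left out (adjusted p up to 0.260). With control 0 h as comparator none of the 5 hnRNP probe sets called in the mean effect was called. HNRNPC, HNRNPD, HNRNPL, HNRNPR, HNRNPU and HNRNPUL1 were not called at any time, with mean differences between log2 -0.04 and 0.17. HNRNPL, which binds CA repeats, had log2 -0.04 (SE 0.07). HNRNPF, a relative of HNRNPH1, read 631 and 667 in controls and 416 and 183 in induced cells at 48 h, and 551 and 736 against 534 and 229 at 72 h. Its 4 induced arrays lay under the 4 controls, yet it was not called at any time (mean log2 -0.59, SE 0.30, adjusted p = 0.152). The 3 HNRNPDL probe sets had mean values of log2 -0.30, -0.38 and -0.25, none called as deposited and 2 called lower under median centring. HNRNPAB (log2 -0.18), HNRNPA1 (-0.19) and HNRNPM (0.29) were not called in the mean effect.

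**Figure D4:**
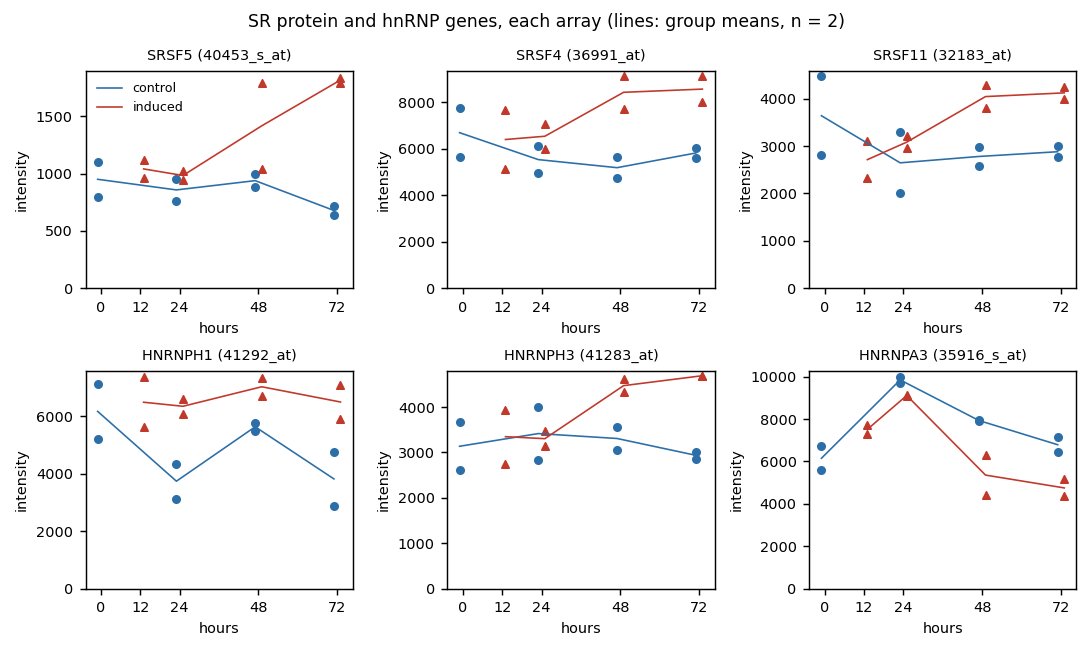
Intensity (y axis, from 0) against hours (x axis) for 3 SR protein and 3 hnRNP probe sets called in the mean effect; each point is 1 array (circles, control; triangles, induced) and lines join group means of 2 arrays. SRSF5 stands at 1793 and 1837 in induced cells at 72 h against 719 and 637 in controls, HNRNPA3 lies below its controls at 48 and 72 h, and 1 of the 0 h controls of HNRNPH1 lies within the range of the induced values.

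For 5 members the effect differed between 24, 48 and 72 h by an F test (7.04% of members beside 10.9% of all probe sets). These were SF3A3 (F test adjusted p = 0.00333), SNRPF (0.00546), SNRPA (0.00724), SNRPB by 38455_at (0.0157) and SF3B4 (0.0260). The SF3A3 effect went from log2 0.02 at 24 h to -1.09 at 48 h and -1.39 at 72 h. For SNRPF it went from 0.10 to -0.55 and -1.10, for SNRPA from -0.32 to -0.74 and -1.40, and for SNRPB from 0.10 to -0.39 and -1.06. SF3B4 alone moved upward, from 0.20 to 0.43 and 1.56. With each of the 12 arrays of these times left out in turn, SF3A3, SNRPF and SNRPA stayed called. The SNRPB call ended without control 24 h replicate 2, either induced 24 h array, control 72 h replicate 2 or induced 72 h replicate 2 (adjusted p up to 0.0651), and that of SF3B4 without any 1 of the 8 arrays of 24 and 72 h (adjusted p up to 0.114).

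**Figure D5:**
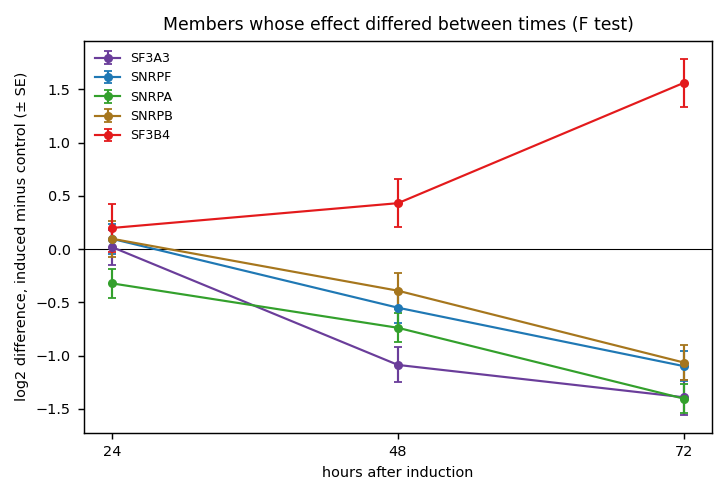
Log2 difference between induced and control cells (y axis, bars ± SE of the fit) at 24, 48 and 72 h (x axis) for the 5 members whose effect differed between times. At 24 h the 5 lie between -0.32 and 0.20, and at 72 h SF3B4 lies at 1.56 and the other four between -1.40 and -1.06.

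The 250 bases before the transcript start of these 5 genes are shown because these are the members whose response to induction differed between times. RefSeq's promoter table (GRCh38.p14) held 49 of the 53 member genes. Each sequence runs 5′ to 3′ on the gene's strand up to the base before the annotated start, and capitals mark matches, on either strand, to the CCAAT box, the RUNX hexamer TGTGGT and the ETS core CCGGAAG.
SF3A3, chr1:37990023-37990272, minus strand: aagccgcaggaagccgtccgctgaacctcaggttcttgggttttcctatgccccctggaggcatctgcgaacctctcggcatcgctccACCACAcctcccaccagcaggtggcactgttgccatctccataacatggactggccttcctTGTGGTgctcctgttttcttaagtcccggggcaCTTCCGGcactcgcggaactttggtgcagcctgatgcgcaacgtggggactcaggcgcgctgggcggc
SNRPF, chr12:95858702-95858951, plus strand: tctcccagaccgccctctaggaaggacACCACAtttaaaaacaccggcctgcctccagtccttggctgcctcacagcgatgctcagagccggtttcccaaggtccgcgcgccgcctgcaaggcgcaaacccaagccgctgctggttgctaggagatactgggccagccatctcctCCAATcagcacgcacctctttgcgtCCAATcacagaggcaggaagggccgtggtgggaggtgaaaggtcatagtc
SNRPA, chr19:40750953-40751202, plus strand: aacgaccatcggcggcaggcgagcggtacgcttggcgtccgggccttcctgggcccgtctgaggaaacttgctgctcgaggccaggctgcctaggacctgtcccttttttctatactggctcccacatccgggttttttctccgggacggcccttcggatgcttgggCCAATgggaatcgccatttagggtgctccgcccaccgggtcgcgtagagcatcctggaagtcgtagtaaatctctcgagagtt
SNRPB, chr20:2470790-2471039, minus strand: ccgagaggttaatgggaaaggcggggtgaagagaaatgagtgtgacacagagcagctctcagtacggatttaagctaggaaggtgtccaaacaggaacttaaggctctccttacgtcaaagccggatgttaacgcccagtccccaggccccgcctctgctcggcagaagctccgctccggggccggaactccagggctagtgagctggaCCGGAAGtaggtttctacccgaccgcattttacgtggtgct
SF3B4, chr1:149927804-149928053, minus strand: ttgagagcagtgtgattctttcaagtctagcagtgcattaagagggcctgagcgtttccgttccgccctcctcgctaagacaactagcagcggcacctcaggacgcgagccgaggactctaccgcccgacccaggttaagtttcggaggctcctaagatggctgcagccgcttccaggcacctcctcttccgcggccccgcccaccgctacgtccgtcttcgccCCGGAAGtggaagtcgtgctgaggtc
SF3A3 held RUNX hexamers that begin at -162 and -101 and an ETS core at -68, counted back from the start. SNRPF held a RUNX hexamer at -223 and CCAAT boxes at -75 and -50, SNRPA a CCAAT box at -83, SNRPB an ETS core at -41 and SF3B4 one at -26.

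Over all member promoters, the ETS core CCGGAAG occurred in 19 of 49 member promoters (38.8%) against 8.82% of all 27305 promoters of the same length in the table, which also holds noncoding genes. It was present in 3 of 8 promoters of genes that rose in the mean effect and 5 of 11 of those that fell. The RUNX hexamer occurred in 4 of 49 member promoters (8.16%) against 10.9% of all 27305, in 0 of the 8 and 2 of the 11 (SF3A3 and SNRPF). The CCAAT box occurred in 19 of 49 member promoters (38.8%) against 33% of all 27305, in 1 of the 8 and 6 of the 11. The E-box CACGTG, bound by MYC and MAX among others, occurred in 6 of 49 member promoters (12.2%) against 6.49% of all 27305, and the GC box GGGCGG in 27 of 49 member promoters (55.1%) against 42.3% of all 27305. The cyclic AMP response element TGACGTCA was in 0 of 49 against 1.77% of all. A match is a string of letters in this window and shows neither a bound factor nor a cause.

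At 12 h after induction, compared with controls at 0 h since 12 h controls were not analysed here, 1 of 71 members was called (1.41% beside 3.28% of all probe sets, with 1.16% higher). This was SF3A3, higher by 1.63-fold (8389 and 6643 against 4819 and 4369.5, log2 0.70, SE 0.16, adjusted p = 0.0371). It was therefore above the 0 h controls before it fell below the later ones. The call ended when any of the 4 arrays but induced 12 h replicate 2 was left out (adjusted p up to 0.181), and leaving out either induced 24 h array or either 48 h control, which enter this comparison through the shared estimate of spread, also left 0 members called. Induction and 12 h of culture cannot be told apart in this comparison. The 12 h arrays read -116.5 and 86.1 for RUNX1T1, so neither showed its signal by the 1 probe set tested. The median member difference was log2 0.10 against -0.15 over all probe sets.

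In uninduced cells no member passed the test over time. Of 71 members, 0 were called in controls at 24, 48 or 72 h against 0 h in limma (10, 5 and 5 at an unadjusted p under 0.05), with median differences of log2 0.21, 0.07 and -0.06. Among all probe sets 39, 1 and 3 were called. Of 15 genes with more than 1 tested probe set, the mean effects shared a sign across probe sets for 9 and differed in sign for 6. Of these 6, SNRPE had a called probe set, and the other five (HNRNPC, HNRNPU, PRPF31, SF3A2 and SRSF3) had none. Among tested members, 11 probe sets carry the suffix _s_at and 3 the suffix _f_at, which mark probes shared by several transcripts or by a sequence family. The hnRNP and SR genes have close relatives and processed copies, so these values may include them.

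Other spliceosome genes were counted from lists made with earlier results of these data known. The U4/U6.U5 tri-snRNP and Lsm ring list had 9 falls and 0 rises among 17 tested probe sets, or 52.9% called beside 31.9% of all probe sets in the mean effect. Its median was log2 -0.40. LSM7, a subunit of the Lsm ring on U6 snRNA, fell 2.80-fold by 36847_r_at (log2 -1.48, adjusted p = 5.42e-06) and 1.79-fold by 36846_s_at. LSM2 fell 1.80-fold and LSM6 1.72-fold. LSM4 fell 1.95-fold by 32559_s_at, whereas 32560_s_at, for the same gene, gave log2 0.20 (adjusted p = 0.501). Of 6 tested probe sets for snRNP assembly factors, 2 fell and 0 rose (33.3% called, near the 31.9% of all probe sets). These were GEMIN4, of the SMN complex, by 2.40-fold (log2 -1.26, adjusted p = 0.00130) and CLNS1A, a chaperone of Sm proteins, by 1.72-fold (log2 -0.78, adjusted p = 9.55e-05).

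The list of SR-related proteins and SR protein kinases went the other way, with 8 rises and 1 fall among 17 tested probe sets (52.9% called beside 31.9% of all) and a median of log2 0.70. CLK1, a kinase that phosphorylates SR proteins, had fitted values of log2 1.60 (adjusted p = 1.32e-04) and 1.80 (adjusted p = 0.00255) from its pair of called probe sets. SON, a scaffold of nuclear speckles, gave log2 1.37 and 0.70, CLK3 1.10 and SRPK2 0.95. The fall was that of SRPK1, the cytoplasmic SR protein kinase (1.49-fold, log2 -0.57, adjusted p = 0.00211). In the list for U1 and U2 recruitment, 7 probe sets rose and 0 fell of 22, or 31.8% called beside 31.9% of all probe sets, among them RBM5 (2.02-fold by 32804_at), SUGP1 (1.86-fold), TIA1 (1.77-fold) and LUC7L3 (1.62-fold).

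Other RNA-binding regulators of splicing had 6 rises and 1 fall among 31 tested probe sets, or 22.6% called beside 31.9% of all. DDX17, an RNA helicase, rose by both called probe sets (log2 1.41 and 0.69), and CELF2 fell 2.13-fold (log2 -1.09, adjusted p = 6.23e-04) while its relative CELF1 rose 1.62-fold by 33207_at (log2 0.69, adjusted p = 0.00361). Factors of the Prp19 complex and of the late steps had 2 rises, CDC5L and DHX16, and 1 fall, PPIE, among 14 probe sets (21.4% called beside 31.9% of all). The PPIE fall came from 34366_g_at (log2 -0.38), while 34365_at and 34364_at gave log2 0.44 and 0.18, not called. The exon junction and cap-binding list had 2 rises, SAP18 and CASC3, and 1 fall, RNPS1 (1.42-fold, log2 -0.51, adjusted p = 6.07e-04), among 14 (21.4% called beside 31.9% of all).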

How the data were processed

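Total RNA of U937 cells was hybridised to Affymetrix U95Av2 arrays, 16 in 8 groups of 2. The deposited values are linear intensity values, 1 per probe set and array, which the authors scaled per array, per the labels, and summarised by software not given in the sources used here. A mean per array of 1370.9 was common to all, and values can be below 0.

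Values under the 40th percentile of all values (136) were set to that floor before log2. Probe sets with at least 2 of 16 arrays above the median (292.7) were tested, and 67 control probe sets were left out. Of the member values, 2.73% lay at the floor, against 9.81% of all tested values. A fold change is that of fitted log2 means, and "at least" marks a lower side at the floor.

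The 8 group means were estimated together by limma 3.58.1 (R 4.3.3, lmFit and eBayes with trend, 8 residual degrees of freedom), with induced minus control contrasts, and p-values are two-sided, adjusted over 7824 probe sets. The model was also run on simulated data with independent normal noise. Those data had no floor and no deviations shared between arrays, so that run does not test the model under either. Arrays of 1 group correlated at r = 0.912 to 0.955 on the log2 scale across probe sets, no pair of arrays was identical, and 2 arrays a group limit the precision. Symbols came from the platform annotation, and all 72 members kept theirs in RefSeq. Members and lists were chosen with earlier results of these data known. Values on single arrays were given for the 8 largest rises and 8 largest falls of the mean effect among called members, members called at 12 or 24 h, those with the smallest F test p and, after their values were seen, for others that show a contrast. Alternatives changed the floor, filter, normalization, spread model, arrays fitted, replicate block and comparator.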

Additional observations from a re-analysis of the deposited data

Results flagged for a closer look

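The effect of induction differed between 24, 48 and 72 h for 5 members (F test in limma). The log2 effect at 72 h minus that at 24 h was -1.41 for SF3A3, -1.20 for SNRPF, -1.08 for SNRPA, -1.16 for SNRPB by 38455_at and 1.36 for SF3B4. The F test gave adjusted p = 0.00333, 0.00546, 0.00724, 0.0157 and 0.0260 in that order. It takes the 24, 48 and 72 h effects together and does not test the 72 h minus 24 h difference alone.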

How the results depend on the processing

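Of the 21 member calls in the mean effect, 6 (SF3B3, SF3B4, SF3A3, SNRPE, SNRPA and SNRPF) kept their direction and call under all 23 alternatives, and the other 15 lost it under at least 1. No called value of a member changed sign under an alternative. The member count of the mean effect was 8 with control 0 h as comparator, 27 for the mean of 48 and 72 h only, an alternative chosen after seeing the data, and 15 to 23 with 1 array left out. At 48 h the count of 8 became 5 with no filter and 4 with no mean-variance trend, and 3 to 9 with 1 array left out. At 72 h the count of 20 became 13 with no filter and 11 to 24 with 1 array left out. The 12 h count of 1 became 2 after quantile normalization, 3 after median centring, 0 with no trend, 0 with the 4 arrays compared fitted alone and 0 to 3 with 1 array left out. The F test count of 5 became 2 with no trend and 3 to 6 with 1 array left out. With no filter more probe sets were tested. For the other changes the cause was not tested. Median centring moved the members' split in the mean effect to 6 higher and 23 lower, and over all probe sets the share of higher calls went from 58.1% as deposited to 50.5% with quantile scaling and 44.8% with median centring. Over all 7824 probe sets, 2499 calls in the mean effect became 1366 with control 0 h as comparator, and 1499 at 48 h became 854 to 933 without 1 of the 4 arrays of that time. At 12 h, 257 became 154 with no trend, 0 with the 4 arrays alone, 169 with no filter and 80 to 324 with 1 array left out, and the 854 of the F test became 463 to 883 with 1 array left out. At 24 h the 0 became at most 4 (no filter).

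The replicate numbers share only a number. Deviations of same-numbered arrays from their group means correlated at r = -0.15 to 0.25 over 28 pairs of groups, with 7 above 0.1, and all 8 groups had a mean r above 0, a hint from the data and not from the design. With the replicate block the member counts were 21 for the mean, 0 at 24 h, 9 at 48 h, 19 at 72 h, 1 at 12 h and 7 for the F test. Of the member calls in the mean effect and at 12, 48 and 72 h, the block ended 1, that of HNRNPA2B1 at 72 h.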
